A study of Mus musculus with 20 samples.

Results

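Cholesterol synthesis was followed at the RNA level in mouse plantaris tendon through 9 genes: 8 enzymes of the pathway, Hmgcs1, Mvk, Mvd, Idi1, Fdps, Fdft1, Sqle and Lss, and Srebf2, which encodes the transcription factor SREBP-2 rather than an enzyme. The genes were chosen by name, each matched 1 row of the deposited count table of 24885 genes, and all 9 were among the 18918 genes tested. The study sequenced RNA of plantaris tendons to follow growth under a growth stimulus with and without targeting of the IGF1 receptor gene Igf1r in tenocytes, the fibroblasts of tendon. It comprised 20 libraries in 5 groups of 4. KO mice are labelled ScxCreERT2+/+ IGF1Rflox/flox, had tamoxifen and the growth stimulus, and were sampled at day 7 and day 14. WT mice are labelled ScxCreERT2-/- IGF1Rflox/flox, and the WT day 7 and WT day 14 groups also had tamoxifen and the growth stimulus. WT day 0 mice had neither. All 5 groups thus carried the floxed Igf1r alleles, and CreERT2, a recombinase that tamoxifen activates, was tied to Scx, a transcription factor gene of tenocytes, so that recombination is aimed at these cells. Tamoxifen and the growth stimulus cannot be told apart between WT day 0 and the later WT groups, and no KO group without the stimulus was analysed here. Nothing in the labels ties a replicate to an animal of its own, so the spread behind each p-value is that of the libraries and may be technical.

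Cells make cholesterol from acetyl-CoA along the mevalonate pathway in the endoplasmic reticulum and cytosol. The early steps give isoprenoid diphosphates, which also serve protein prenylation, ubiquinone and dolichol, and the later steps run through squalene and lanosterol to the sterol. SREBP-2 is held in the endoplasmic reticulum membrane with its escort Scap while sterols are plentiful. When they fall it is cut in the Golgi, and the released part binds sterol response elements at the genes of this pathway and of cholesterol uptake. Counts of Srebf2 RNA measure the transcript and not this cleavage. Dividing cells and cells that lay down new membrane are known to need this supply.

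Library depth ranged from 32.3 to 63.5 M counts. Tenocyte markers were present in every library, with none of the 10 markers at 0. They summed to 90144 to 110060.0 CPM (counts scaled to library size with TMM factors) in KO day 7, 49247 to 61001 in WT day 7 and 51735 to 64561 in WT day 0. At day 14 the sums were 126312 to 140849 CPM in KO and 65934 to 148905 in WT, so that the genotypes overlapped at day 14 and not at day 7. Igf1r counts were not lower in the libraries labelled KO, with a log2 fold change of KO over WT of 0.063 ± 0.08 (SE) at day 7 and 0.23 ± 0.08 at day 14 (edgeR adjusted p = 0.646 and 0.162). A count summed over all exons cannot show whether 1 exon is gone. Scx was higher in KO by 3.87 ± 0.30 and 3.45 ± 0.30 on the log2 scale at day 7 and day 14 (edgeR adjusted p = 3.83e-07 and 1.73e-06). Markers of muscle and of dividing cells moved with the groups too. Summed counts of 12 skeletal muscle fibre markers were 4537 to 11297 CPM in KO day 7, 182 to 1449.9 in WT day 7 and 24069.5 to 61773 in WT day 0. Those of 10 proliferating cell markers were 356 to 527 CPM in KO day 7, 497 to 695 in WT day 7 and 54.6 to 71.9 in WT day 0. One KO day 7 library, replicate 2, stood apart with 759 CPM summed over 8 keratinocyte markers, against 3.97 to 13.8 in the other KO day 7 libraries, and without it the counts of the 9 genes called were 1 higher of KO day 7 over WT day 7 and 2 lower of KO day 14 against KO day 7. In bulk tendon, fewer cells of a type and less RNA per cell cannot be told apart.

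The promoters of 4 of the genes are shown because they include the transcription factor itself, the enzyme at the entry of the pathway, and Mvk and Mvd, enzymes called in at least 3 of the 4 comparisons of days. Each stretch runs from 250 bases before to 50 bases after the RefSeq start, 300 bases in all, on GRCm38.p6, and is given 5′ to 3′ along the gene. Capitals mark matches on either strand to TCACNCCA, the inner letters of a sterol response element, to CCAAT, the letters bound by NF-Y, and to GGGCGG, the letters bound by Sp1. Hmgcs1 lies at chr13:119690101-119690400, plus strand, Srebf2 at chr15:82147019-82147318, plus strand, Mvk at chr5:114444019-114444318, plus strand and Mvd at chr8:122443373-122443672, minus strand.
Hmgcs1: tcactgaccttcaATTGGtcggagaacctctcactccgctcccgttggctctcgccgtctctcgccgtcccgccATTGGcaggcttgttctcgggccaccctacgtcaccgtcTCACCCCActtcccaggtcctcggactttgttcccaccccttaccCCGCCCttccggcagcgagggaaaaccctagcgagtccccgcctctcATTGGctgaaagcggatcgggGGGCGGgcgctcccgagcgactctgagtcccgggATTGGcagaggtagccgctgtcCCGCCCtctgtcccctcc
Srebf2: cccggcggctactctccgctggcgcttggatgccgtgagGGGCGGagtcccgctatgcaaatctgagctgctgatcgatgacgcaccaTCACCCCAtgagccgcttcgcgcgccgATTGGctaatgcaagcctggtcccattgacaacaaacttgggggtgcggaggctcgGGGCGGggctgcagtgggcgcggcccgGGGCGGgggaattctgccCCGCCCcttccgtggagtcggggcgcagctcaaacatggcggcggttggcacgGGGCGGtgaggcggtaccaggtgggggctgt
Mvk: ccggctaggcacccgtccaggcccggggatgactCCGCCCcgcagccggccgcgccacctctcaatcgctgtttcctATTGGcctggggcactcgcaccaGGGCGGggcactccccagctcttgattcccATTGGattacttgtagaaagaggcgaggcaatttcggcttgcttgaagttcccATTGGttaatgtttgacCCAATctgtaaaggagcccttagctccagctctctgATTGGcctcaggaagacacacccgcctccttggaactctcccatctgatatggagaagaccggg
Mvd: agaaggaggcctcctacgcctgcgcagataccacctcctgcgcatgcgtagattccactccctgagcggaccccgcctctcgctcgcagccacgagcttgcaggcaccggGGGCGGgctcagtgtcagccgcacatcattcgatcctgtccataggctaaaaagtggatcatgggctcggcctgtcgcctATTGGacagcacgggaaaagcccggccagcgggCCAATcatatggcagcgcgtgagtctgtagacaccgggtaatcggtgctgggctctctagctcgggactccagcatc

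TCACNCCA was present in 2 of the 6 members with a sequence in the RefSeq table, at position -137 in Hmgcs1 and -162 in Srebf2 relative to the start, and in 4.36% of all 32851 promoters of the table. This short form was added after the sequences had been seen. The longer TCACNCCAC was present in Hmgcs1 alone of the 6 and in 1.24% of all promoters, and the same letters with a further A in front in 0 of the 6 and 0.234%. CCAAT and GGGCGG were each present in all 6 members with a sequence, Hmgcs1, Mvk, Mvd, Idi1, Lss and Srebf2, against 37.4% and 35.7% of all promoters. Mvk held 5 CCAAT matches and Hmgcs1 held 4. The E-box CANNTG, which is not in capitals, was also in all 6 and in 72.3% of all promoters. A match is a description of letters and not a site, and no match says only that these letters are not in this window.

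Per length, Srebf2 and Hmgcs1 were the most abundant of the 9 genes. In WT day 0 the mean level was 15.5 ± 0.831 CPM per kilobase of exon for Srebf2 and 14.05 ± 1.71 for Hmgcs1 (SD, n = 4). Mvk stood at 5.94 ± 0.366, Mvd at 5.75 ± 0.234, Fdft1 at 4.89 ± 0.432, Sqle at 3.398 ± 0.727 and Lss at 1.81 ± 0.304 CPM per kilobase. Fdps and Idi1 were lowest, at 0.455 ± 0.0433 and 0.293 ± 0.0241 CPM per kilobase. Reads of these last 2 genes are uncertain, since 6 other transcripts are at least 90% identical to Fdps over 200 bases or more, most of them processed pseudogenes and the longest match covering 77.1% of the Fdps transcript, and 4 such transcripts exist for Idi1. Fdft1 also has a processed pseudogene, Gm6781, that is 97.4% identical over 33.8% of its transcript. How reads that match several places were counted is not given in the sources used here. Idi1 was also thinly read, at 12 to 105 counts per library.

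**Figure D1:**
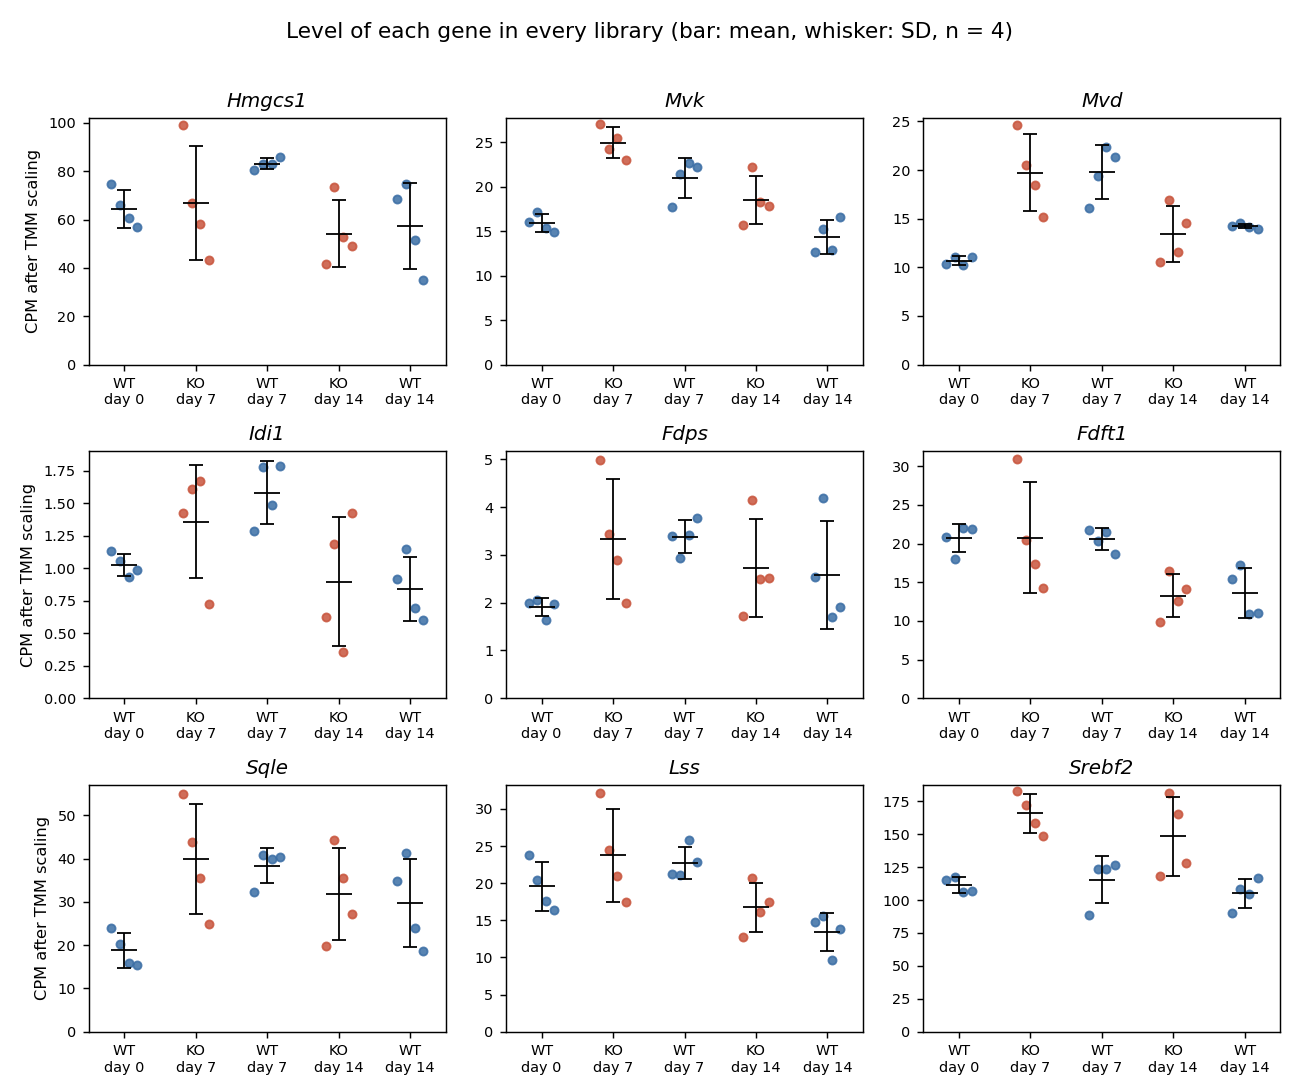
Level of each of the 9 genes in CPM after TMM scaling (vertical axis, from 0), with 1 point per library, KO in red and WT in blue, and the mean and SD of each group of 4 as a bar and whiskers. Mvd, Fdps and Sqle stand higher in all WT day 7 libraries than in any WT day 0 library, and Srebf2 stands higher in KO than in WT at each day with no overlap.

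In the first week 4 of the 8 enzymes rose, and Srebf2 did not pass the test. In WT day 7 against WT day 0 tendons, Mvk, Mvd, Fdps and Sqle rose, by 1.32-fold to 2.04-fold, while Srebf2 differed by 0.052 ± 0.13 on the log2 scale (SE; edgeR adjusted p = 0.741). The 4 genes called higher are 44.4% of the 9, and none was called lower. Over all genes tested, 64.1% were called in this comparison, 32.3% higher and 31.8% lower, so being called was not rare. The median log2 fold change of the 9 genes was 0.40, against 0.02 over all genes tested. WT day 7 libraries lay above all WT day 0 libraries in 6 of the 9 genes, which adds Hmgcs1 and Idi1 to the 4, and 60.6% of all tested genes had groups that did not overlap.

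Mvd (mevalonate diphosphate decarboxylase, which makes isopentenyl diphosphate; ENSMUSG00000006517, chromosome 8, 122433601 to 122443422, minus strand, GRCm38) had 16.05, 19.4, 22.3 and 21.3 CPM in WT day 7, listed here and below by replicate number, and 10.4, 11.1, 10.3 and 11.1 CPM in WT day 0. The lowest WT day 7 library was well above the highest WT day 0 library, and the log2 fold change was 0.89 ± 0.15 (SE; edgeR adjusted p = 2.56e-05; two-sided exact permutation p = 0.0286, the smallest that 4 against 4 libraries allow). Sqle (squalene epoxidase, which adds oxygen to squalene and is a control point of the pathway; ENSMUSG00000022351, chromosome 15, 59315077 to 59331192, plus strand) had 32.3, 40.9, 39.9 and 40.4 CPM in WT day 7 and 23.9, 20.2, 15.8 and 15.4 in WT day 0. It was 2.04-fold higher, at a log2 fold change of 1.03 ± 0.28 (edgeR adjusted p = 0.00355). Fdps (farnesyl diphosphate synthase, whose product feeds both sterols and prenylated proteins; ENSMUSG00000059743, chromosome 3, 89093588 to 89101959, minus strand) had 3.39, 2.93, 3.41 and 3.78 CPM in WT day 7 and 1.99, 2.05, 1.65 and 1.97 in WT day 0, again without overlap. Its log2 fold change was 0.82 ± 0.29 (edgeR adjusted p = 0.0201). Mvk (mevalonate kinase, the first enzyme after mevalonate; ENSMUSG00000041939, chromosome 5, 114444269 to 114460591, plus strand) had 17.7, 21.4, 22.7 and 22.2 CPM in WT day 7 and 16.1, 17.2, 15.4 and 14.9 in WT day 0. The gap between the groups was narrow but complete, with a log2 fold change of 0.40 ± 0.11 (edgeR adjusted p = 0.00367).

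The other 5 genes did not pass the test in the first week. Hmgcs1 (cytosolic HMG-CoA synthase, which joins acetyl-CoA to acetoacetyl-CoA; ENSMUSG00000093930, chromosome 13, 119690379 to 119708260, plus strand) had 80.4, 83.2, 82.8 and 85.95 CPM in WT day 7 and 74.9, 65.9, 60.6 and 56.8 in WT day 0. These groups did not overlap and the WT day 7 libraries were very tight, yet the fitted log2 fold change of 0.36 ± 0.23 did not pass (edgeR adjusted p = 0.184). Idi1 (isopentenyl diphosphate isomerase; ENSMUSG00000058258, chromosome 13, 8885501 to 8892451, plus strand) had 1.28, 1.78, 1.48 and 1.79 CPM in WT day 7 and 1.13, 1.06, 0.937 and 0.987 in WT day 0, with a log2 fold change of 0.62 ± 0.33 (edgeR adjusted p = 0.101). Lss (lanosterol synthase, which closes the sterol rings; ENSMUSG00000033105, chromosome 10, 76531588 to 76557138, plus strand) had 21.2, 21.1, 25.8 and 22.8 CPM in WT day 7 and 23.8, 20.4, 17.7 and 16.4 in WT day 0, and these groups overlapped (edgeR adjusted p = 0.304). Fdft1 (squalene synthase, the first step committed to sterols; ENSMUSG00000021273, chromosome 14, 63145150 to 63179578, minus strand) had 21.8, 20.4, 21.4 and 18.7 CPM in WT day 7 and 20.8, 18.1, 21.97 and 21.9 in WT day 0. Its mean was level, with a 95% interval of the log2 fold change of -0.40 to 0.38. Fdft1 shares 774 exonic bases, 18.3% of its exon length, with Ctsb on the opposite strand, which stood at 3388 ± 411 CPM in WT day 7 and 949.9 ± 19.2 in WT day 0 (SD, n = 4). Without a stated strand setting, reads of Fdft1 and Ctsb in these bases cannot be told apart, and the same holds for smaller overlaps of Hmgcs1, Idi1 and Lss with antisense or unclassified transcripts. Srebf2 (ENSMUSG00000022463, chromosome 15, 82147181 to 82205379, plus strand) had 89.02, 123, 123 and 126 CPM in WT day 7 and 116, 118, 106 and 107 in WT day 0, so that 3 WT day 7 libraries were above all WT day 0 libraries and 1 was below them all.

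Muscle, fat and proliferation markers moved with the same comparison: 12 of 12 muscle markers and 10 of 10 adipocyte markers were called lower and 10 of 10 proliferating cell markers called higher in WT day 7 against WT day 0, and 9 of 10 macrophage markers called higher. Schwann cell markers were called lower in 7 of 8 and keratinocyte markers in 6 of 8. The summed adipocyte markers were 195 to 436 CPM in WT day 7 and 1434 to 2360.3 in WT day 0, the macrophage markers 2083 to 3762 CPM in WT day 7 and 1230.2 to 1351 in WT day 0. Their part in the result was not tested beyond a fit with the muscle marker score as a covariate, in which Mvd remained called. Mvk, Fdps and Sqle had log2 fold changes of 0.32 ± 0.23, 0.41 ± 0.60 and 0.31 ± 0.53 there (SE; edgeR adjusted p = 0.324, 0.657 and 0.706), lower values with larger errors than without it. Summed muscle markers did not overlap between WT day 7 and WT day 0, as given above, so this fit cannot tell muscle from the day. Without WT day 0 replicate 3, Fdps also missed the threshold (edgeR adjusted p = 0.0552).

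**Figure D2:**
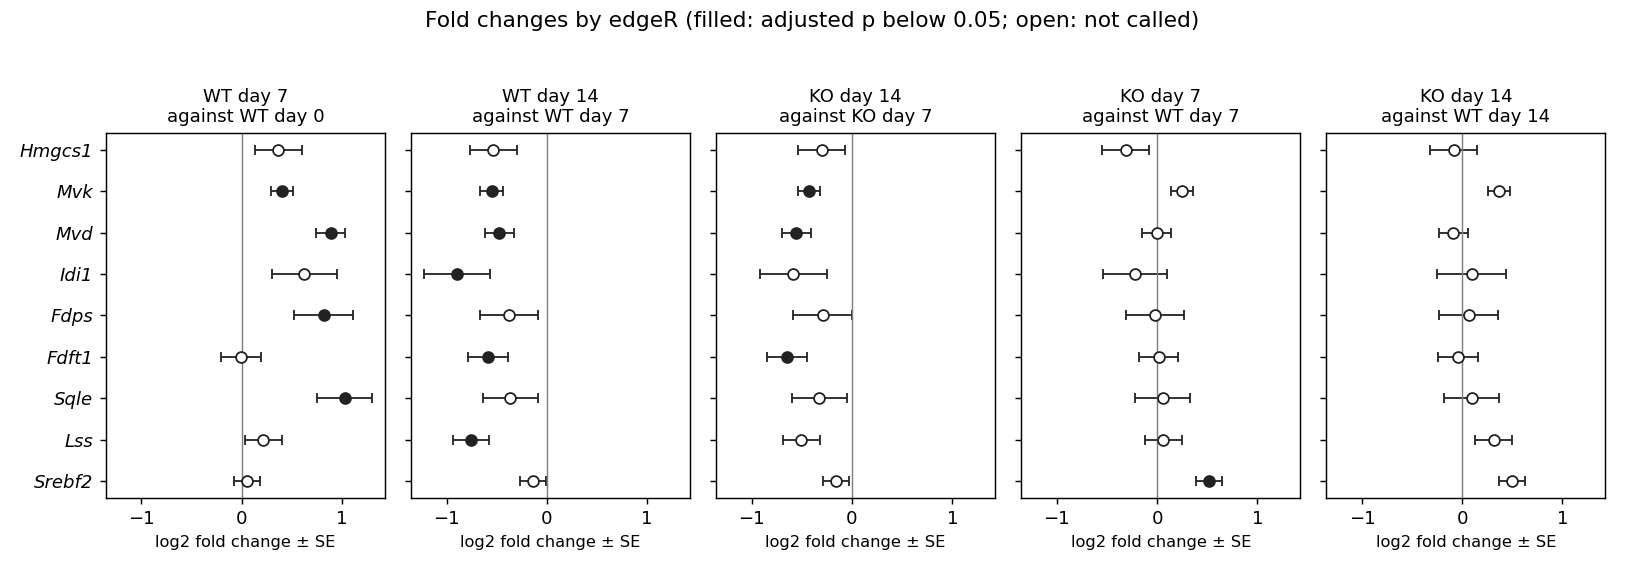
Log2 fold change of each gene ± SE (horizontal axis) in 5 comparisons, with filled points for an edgeR adjusted p below 0.05 and open points for genes not called. Filled points lie right of 0 in the first week and left of 0 in the second, and Srebf2 is the filled point in KO day 7 against WT day 7.

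In the second week 5 of the 8 enzymes fell. In WT day 14 against WT day 7 tendons, Mvk, Mvd, Idi1, Fdft1 and Lss fell, to 0.54 to 0.72 of their WT day 7 level, and all 9 genes had negative log2 fold changes, with a median of -0.53 against 0.02 over all genes tested. The 5 called lower are 55.6% of the 9, against 14.3% of all tested genes called lower, 16% called higher and 30.4% called in either direction. WT day 14 libraries lay below all WT day 7 libraries in 6 of the 9 genes, against 25.6% of all tested genes with groups that did not overlap. The WT day 7 group enters both this comparison and the one with WT day 0, so the rise and the fall share 4 libraries.

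Mvk had 12.7, 15.2, 12.9 and 16.6 CPM in the WT day 14 libraries, where WT day 7 averaged 21.02 ± 2.24. Every WT day 14 library was below every WT day 7 library, and the log2 fold change was -0.55 ± 0.11 (SE; edgeR adjusted p = 0.00101). Lss had 14.7, 15.5, 9.72 and 13.9 CPM in WT day 14, where WT day 7 averaged 22.7 ± 2.17, a log2 fold change of -0.75 ± 0.18 (edgeR adjusted p = 0.00407). Fdft1, level in the first week, had 15.5, 17.3, 10.8 and 11.1 CPM in WT day 14 and 20.6 ± 1.39 on average in WT day 7 (log2 fold change -0.59 ± 0.20, edgeR adjusted p = 0.0316). In Lss and Fdft1 no WT day 14 library reached the WT day 7 range, as in Hmgcs1, Mvk, Mvd and Idi1. Mvd had 14.3, 14.5, 14.2 and 13.9 CPM in WT day 14, the smallest spread relative to the mean of any group of the 9 genes, where WT day 7 averaged 19.8 ± 2.78 (log2 fold change -0.47 ± 0.14, edgeR adjusted p = 0.0174). Idi1 had 0.917, 1.15, 0.692 and 0.604 CPM in WT day 14 and 1.58 ± 0.244 on average in WT day 7 (log2 fold change -0.90 ± 0.33, edgeR adjusted p = 0.0442).

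Hmgcs1, Fdps and Sqle were scattered at day 14. Hmgcs1 had 68.4, 74.6, 51.6 and 34.97 CPM in WT day 14, all below the WT day 7 libraries, with a log2 fold change of -0.53 ± 0.23 (edgeR adjusted p = 0.0968). Fdps had 2.53, 4.202, 1.71 and 1.91 CPM and Sqle 34.8, 41.4, 24.1 and 18.7 CPM in WT day 14, with adjusted p-values by edgeR of 0.356 and 0.342 against WT day 7. In both genes replicate 2 was above the WT day 7 range and replicates 3 and 4 were under it. Srebf2 had 90.3, 109, 105 and 117 CPM in WT day 14 (log2 fold change -0.14 ± 0.13 against WT day 7, edgeR adjusted p = 0.459). Proliferating cell markers were called lower in 10 of 10 and macrophage markers in 9 of 10 in WT day 14 against WT day 7. Muscle markers were called higher in 11 of 12 and tenocyte markers in 10 of 10. Their part in the result was not tested beyond the muscle covariate. With that covariate Mvk alone remained called among the 5, with adjusted p-values by edgeR of 0.174 for Mvd, 0.101 for Idi1, 0.242 for Fdft1 and 0.111 for Lss. The log2 fold changes with it stayed close to those without it or were larger in size, at -0.45 ± 0.21 for Mvd, -1.20 ± 0.48 for Idi1, -0.53 ± 0.29 for Fdft1 and -0.66 ± 0.27 for Lss, while each SE was larger. Summed muscle markers did not overlap between WT day 14 and WT day 7, so the fit with the covariate cannot tell muscle from the day. The Mvd call was lost without WT day 7 replicate 3 or 4 (edgeR adjusted p = 0.0653 and 0.0538), the Fdft1 call without WT day 7 replicate 1, 2 or 3 or WT day 14 replicate 3 or 4 (0.0597 to 0.0992), and the Idi1 call without WT day 7 replicate 2, 3 or 4 or WT day 14 replicate 1, 3 or 4 (0.0687 to 0.112), so that the count called lower was as low as 2 without WT day 7 replicate 3.

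Over the whole 14 days 1 of the 8 enzymes was called higher and 2 lower. In WT day 14 against WT day 0, Mvd rose (14.2 ± 0.246 CPM in WT day 14 against 10.7 ± 0.436 in WT day 0, SD, n = 4; log2 fold change 0.41 ± 0.15, edgeR adjusted p = 0.0216). Fdft1 fell in that comparison (13.7 ± 3.22 CPM in WT day 14 against 20.7 ± 1.83 in WT day 0; -0.60 ± 0.20, edgeR adjusted p = 0.0172). Lss fell too (13.5 ± 2.59 CPM in WT day 14 against 19.6 ± 3.28 in WT day 0; -0.54 ± 0.18, edgeR adjusted p = 0.0178). The 9 genes thus gave 1 call higher and 2 lower, against 28% and 26.2% of all tested genes (54.3% in either direction), with groups that did not overlap in 3, against 46.1% of all tested genes. Sqle missed the threshold at 29.7 ± 10.3 CPM in WT day 14 against 18.8 ± 4.03 in WT day 0 (log2 fold change 0.66 ± 0.28, edgeR adjusted p = 0.0517). Each of these calls lay near the threshold and was lost in some fits with 1 library left out. Mvd was lost without WT day 0 replicate 3 (log2 fold change 0.39, edgeR adjusted p = 0.0519). Lss was lost without WT day 0 replicate 1 or WT day 14 replicate 3 (-0.43 and -0.41, edgeR adjusted p = 0.0682 and 0.0702). Fdft1 was lost without WT day 14 replicate 3 or 4 (-0.50 and -0.51, edgeR adjusted p = 0.0609 and 0.0559). With the muscle covariate Mvd and Fdft1 were also not called (edgeR adjusted p = 0.0924 and 0.0563), with log2 fold changes of 0.40 ± 0.19 and -0.64 ± 0.26 (SE) that were close to those without it. Summed muscle markers did not overlap between these groups either. Adipocyte markers were called lower in 10 of 10, muscle markers in 7 of 12, Schwann cell markers in 6 of 8 and keratinocyte markers in 6 of 8 in WT day 14 against WT day 0. Proliferating cell markers were called higher in 9 of 10, macrophage markers in 6 of 10 and tenocyte markers in 5 of 10, with 3 tenocyte markers lower. The part of these other markers was not tested.

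The second week in KO tendons ran the same way in sign. In KO day 14 against KO day 7, all 9 log2 fold changes were negative, with a median of -0.43 against 0.0013 over all genes tested, and Mvk, Mvd and Fdft1 fell. The 3 called lower are 33.3% of the 9, against 8.57% of all tested genes called lower, 7.09% called higher and 15.7% called in either direction. Mvk had 15.7, 22.2, 18.3 and 17.8 CPM in KO day 14 and 27.03, 24.2, 25.5 and 22.97 in KO day 7, the one gene of the 9 in which these groups did not overlap, against 20.6% of all tested genes (log2 fold change -0.43 ± 0.11, edgeR adjusted p = 0.0126). Mvd had 10.6, 16.9, 11.6 and 14.6 CPM in KO day 14 and 24.7, 20.5, 18.4 and 15.2 in KO day 7 (log2 fold change -0.56 ± 0.14, edgeR adjusted p = 0.0134). Fdft1 had 9.87, 16.5, 12.6 and 14.1 CPM in KO day 14 and 30.9, 20.5, 17.4 and 14.3 in KO day 7 (log2 fold change -0.65 ± 0.20, edgeR adjusted p = 0.0347). In the last 2 genes 1 or more KO day 14 libraries reached into the KO day 7 range. Proliferating cell markers were called lower in 7 of 10 and macrophage markers in 6 of 10 in KO day 14 against KO day 7, muscle markers in 0 of 12, and tenocyte markers were called higher in 6 of 10. Their part in the result was not tested beyond the muscle covariate, with which Mvk, Mvd and Fdft1 remained called. Lss missed the threshold at 16.8 ± 3.31 CPM in KO day 14 and 23.8 ± 6.26 in KO day 7 (edgeR adjusted p = 0.0657). Without KO day 14 replicate 1, the lowest library of its group in 8 of the 9 genes, no gene was called (edgeR adjusted p = 0.0568 for Mvk, 0.059 for Mvd and 0.123 for Fdft1), and without KO day 7 replicate 1 Mvk alone was called (0.06 for Mvd and 0.157 for Fdft1). Fdft1 was also lost without KO day 7 replicate 2 or KO day 14 replicate 3 (edgeR adjusted p = 0.0669 and 0.0795) and with limma-voom (adjusted p = 0.0605), and Mvd and Fdft1 in a fit to these groups alone (0.0707 and 0.11).

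Between genotypes it was the transcription factor gene that differed, and the enzymes did not pass the test. Srebf2 had 183, 172, 159 and 149 CPM in the KO day 7 libraries, where the WT day 7 libraries had 89.02, 123, 123 and 126. Every KO day 7 library was above every WT day 7 library, and the means were 166 ± 14.9 CPM in KO and 116 ± 17.8 in WT (SD, n = 4; two-sided exact permutation p = 0.0286). Srebf2 was 1.43-fold higher in KO day 7 than in WT day 7, a log2 fold change of 0.52 ± 0.13 (edgeR adjusted p = 0.0127). It was the 1 gene of the 9 called in this comparison, 11.1%, against 14.8% of all tested genes called, 9.39% higher and 5.42% lower. Leaving out any single library of either group kept the call, with log2 fold changes from 0.42 to 0.57, the lowest without WT day 7 replicate 1. Muscle markers were called higher in 11 of 12 and tenocyte markers in 5 of 10 in KO day 7 against WT day 7, and with the muscle score as a covariate Srebf2 had a log2 fold change of 0.69 ± 0.17 (SE; edgeR adjusted p = 0.0257). Summed muscle markers did not overlap between these groups, so the fit with this covariate cannot tell muscle from genotype. The part of the tenocyte markers was not tested.

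At day 14 Srebf2 had 118, 181, 166 and 128 CPM in the KO libraries and 90.3, 109, 105 and 117 in the WT libraries. All KO libraries were again above all WT libraries, though the lowest KO library exceeded the highest WT library by little. The means were 148 ± 30.1 CPM in KO day 14 and 105 ± 11.02 in WT day 14 (SD, n = 4; two-sided exact permutation p = 0.0286), and the log2 fold change of 0.50 ± 0.13 narrowly missed the threshold (edgeR adjusted p = 0.0541, and 0.0125 by DESeq2, 0.0728 by limma-voom and 0.0225 to 0.184 with 1 library left out). None of the 9 genes was called by edgeR in KO day 14 against WT day 14, where 1.78% of all tested genes were, with 2 of the 9, Mvk and Srebf2, at an unadjusted p below 0.05, 2 called by DESeq2 and 0 by limma-voom. Groups did not overlap in 1 of the 9 genes, Srebf2, against 6.13% of all tested genes. The genotype difference of Srebf2 at day 14 minus that at day 7 was -0.023 ± 0.18 on the log2 scale (SE; 95% interval -0.38 to 0.33; edgeR adjusted p = 0.983).

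Among the enzymes, Mvk came closest to a genotype difference. It had 27.03, 24.2, 25.5 and 22.97 CPM in KO day 7 and 17.7, 21.4, 22.7 and 22.2 in WT day 7, groups that did not overlap, with a log2 fold change of 0.25 ± 0.11 (edgeR adjusted p = 0.134; exact permutation p = 0.0286). Mvk and Srebf2 were the 2 of 9 genes without overlap at day 7, against 24.4% of all tested genes. At day 14 Mvk averaged 18.5 ± 2.71 CPM in KO and 14.3 ± 1.91 in WT (SD, n = 4), a log2 fold change of 0.37 ± 0.11 (edgeR adjusted p = 0.0997; exact permutation p = 0.0571). Hmgcs1 spread widely in KO day 7, with 98.9, 66.7, 58.3 and 43.5 CPM, and little in WT day 7, with 80.4 to 85.95 CPM, and had a log2 fold change of -0.31 ± 0.23 (95% interval -0.77 to 0.15; edgeR adjusted p = 0.392).

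Mvd averaged 19.7 ± 3.96 CPM in KO day 7 and 19.8 ± 2.78 in WT day 7, and the 95% interval of its log2 fold change was -0.29 to 0.27. For Sqle the means were 39.8 ± 12.7 CPM in KO day 7 and 38.3 ± 4.09 in WT day 7, with an interval of -0.48 to 0.59, so that at the spread of these libraries a difference within these bounds cannot be told from none. Fdps, Fdft1, Lss and Idi1 had intervals of -0.58 to 0.54, -0.37 to 0.40, -0.29 to 0.42 and -0.85 to 0.40 on the log2 scale at day 7. The median log2 fold change of the 9 genes was 0.014 at day 7 and 0.093 at day 14, against -0.013 and -0.015 over all genes tested. In the interaction of genotype and day no gene of the 9 was called by edgeR, DESeq2 or limma-voom and none had an unadjusted p below 0.05, and over all genes tested edgeR called 0, or 0% of 18918.

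The libraries of a group often ranked alike across the pathway. In KO day 7, replicate 1 was the highest library in 8 of the 9 genes, all but Idi1, and replicate 4 the lowest in all 9. Sqle was at 54.99, 43.8, 35.6 and 24.9 CPM in KO day 7 replicates 1 to 4, and Lss at 32.1, 24.5, 21.02 and 17.5 CPM. In KO day 14, replicate 2 was the highest in 8 of the 9 genes and replicate 1 the lowest in 8, again all but Idi1. In WT day 14, replicate 2 was the highest in 7, all but Mvk and Srebf2, and replicate 4 the lowest in 4. In WT day 7, replicate 4 was the highest in 4 genes and replicate 1 the lowest in 6. In WT day 0, replicate 1 was the highest in 4, and replicates 3 and 4 were each the lowest in 4.

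The spread within groups differed accordingly. The highest library stood above the lowest by a median over the 9 genes of 2.16-fold in KO day 7 and 1.28-fold in WT day 7, of 1.67-fold in KO day 14 and 1.599-fold in WT day 14, and of 1.22-fold in WT day 0. Idi1 in KO day 14, at 0.622, 1.19, 0.357 and 1.43 CPM, was the widest at 4.004-fold, on few reads. The genes share each library, so this ordering counts as 1 observation per group and was not tested. Nothing in the labels sets these libraries apart.

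**Figure D3:**
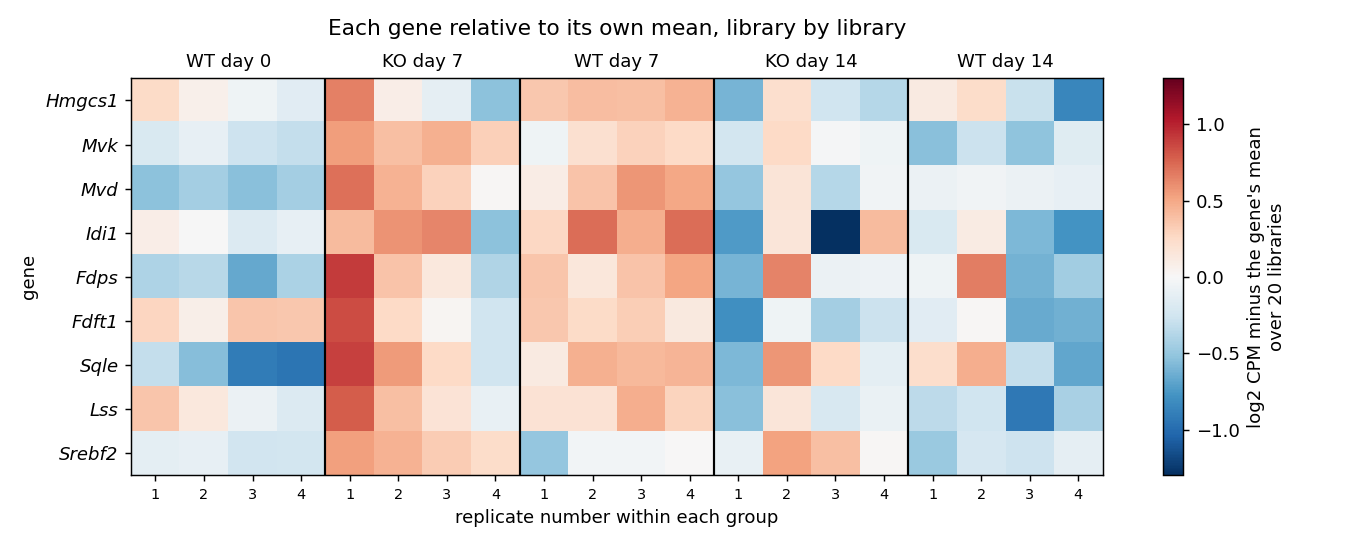
Log2 CPM of each gene minus its own mean over the 20 libraries (colour, red above and blue below the mean), with genes in rows and libraries in columns by group and replicate number. KO day 7 replicate 1 is red in all 9 rows, KO day 14 replicate 1 blue in all 9, and Srebf2 is the row in which KO and WT columns differ most plainly.

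Of 14 other enzymes of the pathway, all tested, 7 were called higher and 2, Tm7sf2 and Sc5d, lower in WT day 7 against WT day 0, with a median log2 fold change of 0.50. Over all tested genes 32.3% were called higher and 31.8% lower, 64.1% in all, so that the share of these enzymes called in either direction was near that of all genes. Erg28, known from yeast as a scaffold for sterol demethylation, and Ebp, a sterol isomerase, rose by 1.43 ± 0.20 and 0.78 ± 0.09 on the log2 scale (edgeR adjusted p = 3.93e-06 and 3.32e-07). Tm7sf2, a sterol reductase, fell to 4.58 ± 0.335 CPM in WT day 7, against 9.44 ± 0.598 in WT day 0 (edgeR adjusted p = 2.25e-07). In WT day 14 against WT day 7, 1 of the 14 was called higher and 2 lower, against 16% and 14.3% of all tested genes. The 2 lower were Lbr and Acat2, at log2 fold changes of -0.44 ± 0.085 and -0.46 ± 0.11. In KO day 7 against WT day 7, Lbr, a sterol reductase of the inner nuclear membrane, was lower by 0.27 on the log2 scale (edgeR adjusted p = 0.0359). In that comparison 1 of the 14 was called higher and 1 lower, against 9.39% and 5.42% of all tested genes.

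Of 6 genes of the SREBP control list, Mbtps2 was called higher and Srebf1, Insig2 and Mbtps1 lower in WT day 7 against WT day 0. The median log2 fold change of the 6 was -0.27. These 4 calls of 6 are near the 64.1% of all tested genes called. Srebf1, which encodes the SREBP form that mainly serves fatty acid synthesis, averaged 101 ± 28.7 CPM in WT day 7 and 178 ± 3.72 in WT day 0 (log2 fold change -0.82 ± 0.18, edgeR adjusted p = 0.000638). Insig2, which helps to hold the SREBP and Scap complex in the endoplasmic reticulum, averaged 33.9 ± 2.58 CPM in WT day 7 and 56.6 ± 2.48 in WT day 0 (-0.74 ± 0.091, edgeR adjusted p = 7.93e-07). In KO day 7 against WT day 7, Scap and Mbtps1, which encodes the first protease that cuts SREBPs, were called higher. Their log2 fold changes were 0.40 ± 0.13 and 0.27 ± 0.088 (edgeR adjusted p = 0.0413 and 0.0475). These 2 calls of 6 stand against 9.39% of all tested genes called higher and 5.42% lower. The others were not called, with Insig2 at 0.25 ± 0.091, Srebf1 at 0.30 ± 0.18, Mbtps2 at -0.17 ± 0.079 and Insig1 at -0.24 ± 0.23. In KO day 14 against WT day 14, Mbtps1 and Scap had log2 fold changes of 0.26 ± 0.088 and 0.16 ± 0.13. Neither was called there (edgeR adjusted p = 0.14 and 0.583).

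Of 8 sterol uptake and transport genes, 5 were called higher and 1 lower in WT day 7 against WT day 0 (median 0.82), against 32.3% of all tested genes called higher and 31.8% lower. In WT day 14 against WT day 7, 5 were called lower (median -0.45), against 14.3% of all tested genes, and the other 3 were not called. Stard4, a cytosolic sterol carrier, averaged 41.3 ± 0.915 CPM in WT day 7 and 23.3 ± 4.07 in WT day 0. Npc1, which exports cholesterol from lysosomes, averaged 138 ± 13.2 CPM in WT day 7 and 77.1 ± 5.205 in WT day 0 (0.84 ± 0.082, edgeR adjusted p = 3.59e-08). Lrp1, an endocytic receptor of the plasma membrane, had a log2 fold change of 0.54 ± 0.20 in KO day 7 against WT day 7 and was not called (edgeR adjusted p = 0.0742).

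Of 10 fatty acid synthesis genes, which are driven mainly by the other SREBP, 5 were called lower and 2 higher in WT day 7 against WT day 0 (median -0.37). These 7 calls of 10 stand against 64.1% of all tested genes called (31.8% lower and 32.3% higher). Scd1, a stearoyl-CoA desaturase that is abundant in fat, averaged 294 ± 119 CPM in WT day 7 and 2412 ± 597 in WT day 0. Me1 averaged 18.5 ± 2.22 CPM in WT day 7 and 83.2 ± 19.6 in WT day 0 (edgeR adjusted p = 1.01e-07 for Scd1 and 2.43e-10 for Me1). The adipocyte markers fell in the same libraries, as given above, and their part in this result was not tested. In KO day 7 against WT day 7, Acss2 and Fads1 were called higher by 0.56 ± 0.17 and 0.43 ± 0.13. These 2 calls of 10 stand against 9.39% of all tested genes called higher and 5.42% lower. Of 6 genes of the LXR and efflux list, 3 (Abca1, Abcg1 and Apoe) were called higher and 3 (Nr1h2, Nr1h3 and Mylip) lower in WT day 7 against WT day 0. Of 4 genes of esterification and oxysterols, Soat1 and Cyp7b1 were called higher and Cyp27a1 lower. Soat1, which esterifies cholesterol, was at 100.3 ± 4.48 CPM in WT day 7 and 29.2 ± 3.45 in WT day 0. Apoe was at 2514 ± 471 CPM in WT day 7 and 622 ± 46.6 in WT day 0. Macrophages express Soat1 and Apoe too, and their part in these results was not tested. Abca1, a cholesterol exporter, averaged 220.0 ± 26.7 CPM in KO day 7 and 345 ± 73.3 in WT day 7 (-0.65 ± 0.13, edgeR adjusted p = 0.0042). It was the 1 of 6 genes of the LXR and efflux list called there, against 14.8% of all tested genes. Of 10 genes of the other mevalonate branches, 2 were called higher and 2 lower in WT day 7 against WT day 0 (median 0.074), against 64.1% of all tested genes called.

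**Figure D4:**
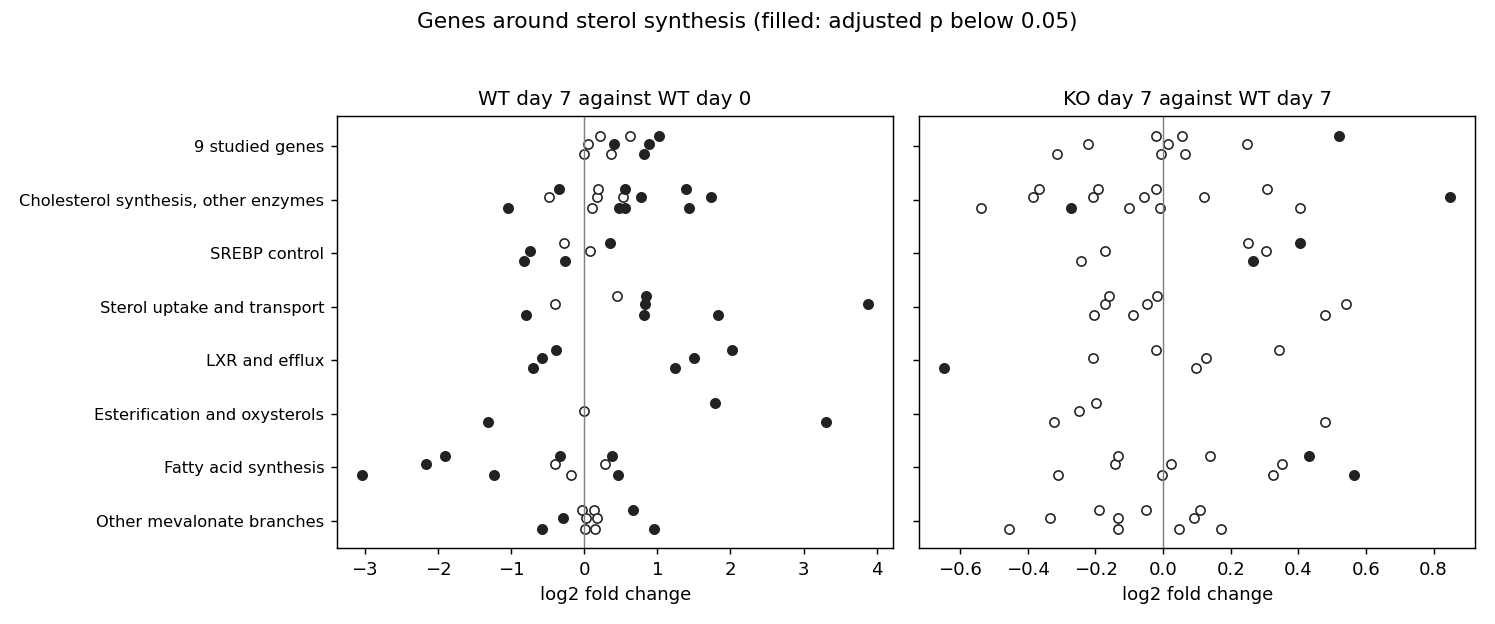
Log2 fold changes of the 9 genes and of 7 related lists (rows), with 1 point per gene, filled where the edgeR adjusted p is below 0.05, for WT day 7 against WT day 0 and KO day 7 against WT day 7; the horizontal scales differ. The cholesterol enzyme and sterol uptake lists lie mostly right of 0 and fatty acid synthesis mostly left in the first week, and few points are filled between genotypes.

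Genes with the most similar course were sought over all 20 libraries, by the root mean square difference between a gene's centred log2 CPM and the median of the 9 genes. Among 11142 named genes with a mean of at least 5 CPM, the median difference was 0.426 and the lowest 1% lay under 0.255. Stard4 was closest, at 0.171, followed by Nemp1 (0.205), Tuba1b (0.207), Nudt22 (0.21), Acat2 (0.213), Rbm14 (0.215), Cnot9 (0.216), Hirip3 (0.217) and Tkt (0.217). Of the 9 genes themselves Lss was closest to their median, at 0.185, and Idi1 and Srebf2 farthest, at 0.368 and 0.336. A flat line lay at 0.341 from that median. More than 1% of the genes compared lay closer to the median than Srebf2 did. The same held for Idi1, Sqle (0.321) and Fdft1 (0.267). The 9 genes themselves form the median, so their differences are not measured on the same footing as those of other genes.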

How the data were processed

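The authors deposited raw counts per gene for 20 libraries, whole numbers for 24885 genes, with no gene under 21 counts in all. Per the submitters' processing notes, reads were checked with FastQC, aligned with STAR to mm10 and analysed with edgeR. Versions, counter, annotation and strand are not given in the sources. Per the labels' protocols, RNA was extracted with a column kit with DNase treatment.

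The counts were tested with edgeR 4.0.16 in R 4.3.3: filterByExpr (18918 genes), TMM scaling, 1 mean per group over all libraries, robust quasi-likelihood F test, Benjamini-Hochberg adjusted p below 0.05 over all genes. The SE is the log2 fold change divided by the root of F, and 95% intervals use it with a normal quantile. Single values were compared with two-sided exact permutation tests (70 arrangements of 4 against 4, smallest p 0.0286). Log2 CPM used a prior count of 2. Other settings were upper-quartile or RLE scaling, no filter or a filter of 1 CPM in 4 libraries, limma-voom (limma 3.58.1), DESeq2 1.42.0, fits to the groups compared, a replicate block, a muscle covariate, and each library left out. The fit was tested on simulated data. No pair of libraries within a group agreed within sampling noise. The deposited table of the authors' own comparisons was not used.

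The members and lists were chosen with earlier results of these data known. Named were all 9 genes, and per other list and comparison up to 4 called genes with the smallest p (up to 2 where none was called), plus genes of closest course. Stard4 and Lbr were named further where set against these. Some genes that the rule names are not reported here. Coordinates and exon lengths come from GENCODE vM21 (GRCm38), promoters from RefSeq (GRCm38.p6), with a sequence for 6 of the 9 genes.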

Additional observations from a re-analysis of the deposited data

Results flagged for a closer look

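Among 45 sets of 4 libraries (9 genes in 5 groups), 2 had a library far from its fellows, with a gap to the nearest library, as a share of the group's range, above Dixon's 95% critical value for 4 libraries. Chance gives about 1 in 20 sets. Both concern WT day 7 replicate 1. Srebf2 stood at 89.0 CPM there and at 123 to 126 CPM in the other WT day 7 libraries (gap over range 0.921). Sqle stood at 32.3 CPM there and at 39.9 to 40.9 CPM in the others (0.884). Without this library the log2 fold change of Srebf2 in KO day 7 against WT day 7 was 0.42 ± 0.12 (SE; edgeR adjusted p = 0.0338).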

How the results depend on the processing

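Of the 16 calls among the 9 genes, 3 held under every setting and every left-out library: Mvd in WT day 7 against WT day 0, Mvk in WT day 14 against WT day 7, and Srebf2 in KO day 7 against WT day 7. No call changed sign. Fold changes that were not called changed sign in 54 of 448 values with a library left out and in 17 of 423 under other settings.

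With the muscle score as a covariate, the genes called numbered 1 higher in WT day 7 against WT day 0 (5411 of all genes), 0 higher and 1 lower in WT day 14 against WT day 0, 1 lower in WT day 14 against WT day 7 (2772 of all genes) and 1 higher in KO day 14 against WT day 14, and 904 of all genes were called in KO day 7 against WT day 7. In WT day 14 against WT day 0, 2 of the 9 were called higher under upper-quartile scaling, the filter of at least 1 CPM, DESeq2 and the replicate block. In KO day 14 against WT day 14, 1 was called higher under RLE and upper-quartile scaling, that filter and the replicate block, and 2 under DESeq2, which called 759 of all genes there, and 190 in the interaction. The fit to the compared groups alone called 1 lower in KO day 14 against KO day 7 and 86 of all genes in KO day 14 against WT day 14. The causes were not tested.

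With 1 library left out, the counts of the 9 genes ranged from 3 to 4 higher in WT day 7 against WT day 0, 0 to 2 higher and 0 to 2 lower in WT day 14 against WT day 0, 2 to 6 lower in WT day 14 against WT day 7, 0 to 4 lower in KO day 14 against KO day 7, 1 higher throughout in KO day 7 against WT day 7, and 0 to 2 higher in KO day 14 against WT day 14. Counts over all genes, in either direction, ranged from 11411 to 11836 in WT day 7 against WT day 0. They ranged from 9207 to 10594 in WT day 14 against WT day 0. In WT day 14 against WT day 7 they ranged from 4521 to 5912. The other ranges over all genes were 1693 (without KO day 14 replicate 1) to 2956 in KO day 14 against KO day 7, 1440 (without WT day 7 replicate 2) to 2659 in KO day 7 against WT day 7, 152 (without WT day 14 replicate 1) to 1672 (without WT day 14 replicate 4) in KO day 14 against WT day 14, and 0 to 11 in the interaction.

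The labels do not say what a replicate number marks, and libraries were not taken as paired: same-numbered libraries had correlations of their deviations from -0.165 to 0.272 over 40 pairs, 14 of them above 0.1. Of 20 libraries, 10 were closest to their own number, a hint of pairing from the data and not from the design. With the replicate block 3 more values were called: Sqle in WT day 14 against WT day 0 (edgeR adjusted p = 0.0369), Hmgcs1 in WT day 14 against WT day 7 (0.0348), where 6 of the 9 were then lower, and Srebf2 in KO day 14 against WT day 14 (0.04997). The replicate block called 12227 of all genes in WT day 7 against WT day 0 and 345 in KO day 14 against WT day 14. It called 10414 in WT day 14 against WT day 0. In WT day 14 against WT day 7 it called 5879 of all genes. The related gene lists were not run under other settings. Depth limits Idi1 most, at 12 to 105 counts per library.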

Other observations

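Srebf2 and Sqle lie on chromosome 15 with Scx, 5.69 and 17.1 megabases from it. Of 239 tested genes within 6 megabases of Scx, a window chosen after the value of Srebf2 had been seen, 52 were called in KO day 7 against WT day 7 (21.8%, 43 of them higher), against 14.8% of all tested genes. At day 14 the counts were 11 of 239 (4.6%) near Scx and 1.78% of all tested genes. The part of this position in the Srebf2 result was not tested.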
